A study of Mus musculus with 6 samples.

Results

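The genes described here encode the ligands, receptors and antagonists of the TGF-beta superfamily. They comprise 46 genes chosen by symbol for their place in the pathway, and 45 of them had an entry among the 20633 RefSeq transcripts of the nuclear RNA-seq table. The level of Nodal was not analysed here, and Nodal enters below only through its promoter sequence. Where a gene had several transcripts in the table, the one with the highest value stood for it.

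The RNA came from nuclei of mouse embryonic stem (ES) cells of the line Rybp fl/fl;Yaf2-/-, which lacks Yaf2 and carries Rybp alleles that a tamoxifen-activated Cre recombinase can delete. RYBP and its relative YAF2 are alternative subunits of variant PRC1, a Polycomb complex that ubiquitylates histone H2A. The untreated group (UNT) and the group that received 4-hydroxytamoxifen (OHT) at 800 nM over 96 hours comprised 3 biological replicates each. Both groups carried the Yaf2 deletion, which was made with Cas9 and isolated as individual colonies, so the line is clonal. The cells were grown on gelatin with serum and leukaemia inhibitory factor (LIF). The value analysed here is the base mean, which is the authors' mean of normalised read counts over all 6 libraries, UNT and OHT together. It gives 1 level per gene and no spread between replicates, so OHT and UNT were not compared and no test was made. The base mean of Rybp was 13983 and that of Yaf2 was 3.24. Because the groups were pooled, the value for Rybp is no check of its deletion.

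The TGF-beta superfamily signals through dimeric ligands that bring together type II and type I serine/threonine kinase receptors. The type II receptor phosphorylates the type I receptor, which in turn phosphorylates receptor Smads. Nodal, Activin and TGF-beta ligands act through Smad2 and Smad3, whereas the BMP ligands and many GDFs act through Smad1, Smad5 and Smad9. Smad4 joins both sets. In ES cells, BMP4 in the presence of LIF induces Id genes and restrains neural differentiation, while Nodal and Activin act on the choice between germ layers. Many genes for ligands and antagonists of this family are Polycomb targets in ES cells. Extracellular antagonists such as Lefty, Noggin and Chordin limit how far the ligands act.

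Promoters are shown first because the genes differed both in level and in promoter sequence. The RefSeq table for the GRCm38.p6 assembly held a window of 250 bases before to 50 bases after the start for 30 of the 46 genes. The 4 sequences below pair a highly and a weakly represented gene with few CpG dinucleotides (Tdgf1 and Bmp5) and with many (Tgfbr1 and Gdf10). Each is the 250 bases before the start, written 5′ to 3′ on the strand of the gene, and capitals mark CpG dinucleotides. The Tdgf1 sequence lies at chr9:110946159-110946408 on the minus strand and holds 7 CpGs, and that of Tgfbr1 lies at chr4:47352972-47353221 on the plus strand and holds 29. The Gdf10 sequence lies at chr14:33923337-33923586 on the plus strand and holds 35 CpGs, and that of Bmp5 lies at chr9:75775115-75775364 on the plus strand and holds 4.
Tdgf1: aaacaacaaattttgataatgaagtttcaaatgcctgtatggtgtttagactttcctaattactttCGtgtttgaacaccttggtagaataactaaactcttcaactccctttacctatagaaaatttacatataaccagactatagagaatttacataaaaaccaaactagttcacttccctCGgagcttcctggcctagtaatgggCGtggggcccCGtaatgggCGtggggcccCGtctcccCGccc
Tgfbr1: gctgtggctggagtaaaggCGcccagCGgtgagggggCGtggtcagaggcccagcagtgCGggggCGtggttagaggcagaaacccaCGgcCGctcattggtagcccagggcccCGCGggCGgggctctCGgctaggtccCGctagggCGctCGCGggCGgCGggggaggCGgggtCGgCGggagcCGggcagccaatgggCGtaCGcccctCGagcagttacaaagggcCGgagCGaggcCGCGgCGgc
Gdf10: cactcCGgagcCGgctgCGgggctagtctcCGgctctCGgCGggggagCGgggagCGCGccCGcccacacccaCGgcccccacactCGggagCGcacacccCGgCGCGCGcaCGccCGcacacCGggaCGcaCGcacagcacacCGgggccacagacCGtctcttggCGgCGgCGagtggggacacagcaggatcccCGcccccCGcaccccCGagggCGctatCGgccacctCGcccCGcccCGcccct
Bmp5: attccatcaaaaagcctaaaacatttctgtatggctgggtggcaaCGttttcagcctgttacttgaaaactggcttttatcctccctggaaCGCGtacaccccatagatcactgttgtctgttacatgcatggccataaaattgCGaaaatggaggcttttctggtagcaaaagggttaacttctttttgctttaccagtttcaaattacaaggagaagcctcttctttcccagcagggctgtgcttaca

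To compare genes, the base mean was divided by the length in kb of the whole gene span, since nuclear RNA contains unspliced transcripts. The median over all entries with a base mean above 0 was 14.0 normalised counts per kb, with quartiles of 1.38 and 51.6. Each gene was also placed as a percentile among these entries. None of the 45 genes was at 0, and their base means ran from 1.06 for Acvr1c to 14299.9 for Tdgf1. Base means were 10 or more for 38 of the 45 genes, against 75.8% of all entries. The units differ, since each of the 45 genes is taken at its highest entry whereas the share counts every entry. The level per kb of span exceeded the median of all entries for 17 of the 45 genes. Of these genes, 7 lay above percentile 75 and 10 below percentile 25, and the median percentile of the 45 was 42.4. By role, the median percentile was 31.8 for the 22 ligands, 65.8 for the 10 type I and type II receptors and 50.3 for the 10 antagonists. The antagonist value moved to 38.8 when levels were taken per kb of exons, whereas the ligand value was 32.8 and the receptor value 74.2. Thus receptors lay above ligands on both length scales, while the place of the antagonists depended on the scale. When genes that overlap another annotated gene were left out, only 3 receptors remained (Bmpr1b, Tgfbr1 and Tgfbr2), with a median percentile of 32.4, and the 12 remaining ligands had 38.4. The overlaps of most other receptors were small, at 0.159% of the span for Acvr1b, 0.500% for Acvr2a, 0.799% for Acvr1, 1.05% for Bmpr1a and 2.97% for Bmpr2. Leaving out only genes overlapped over at least 5% of their span, a setting chosen after seeing the data, gave 67.3 for 8 receptors and 32.6 for 15 ligands.

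**Figure D1:**
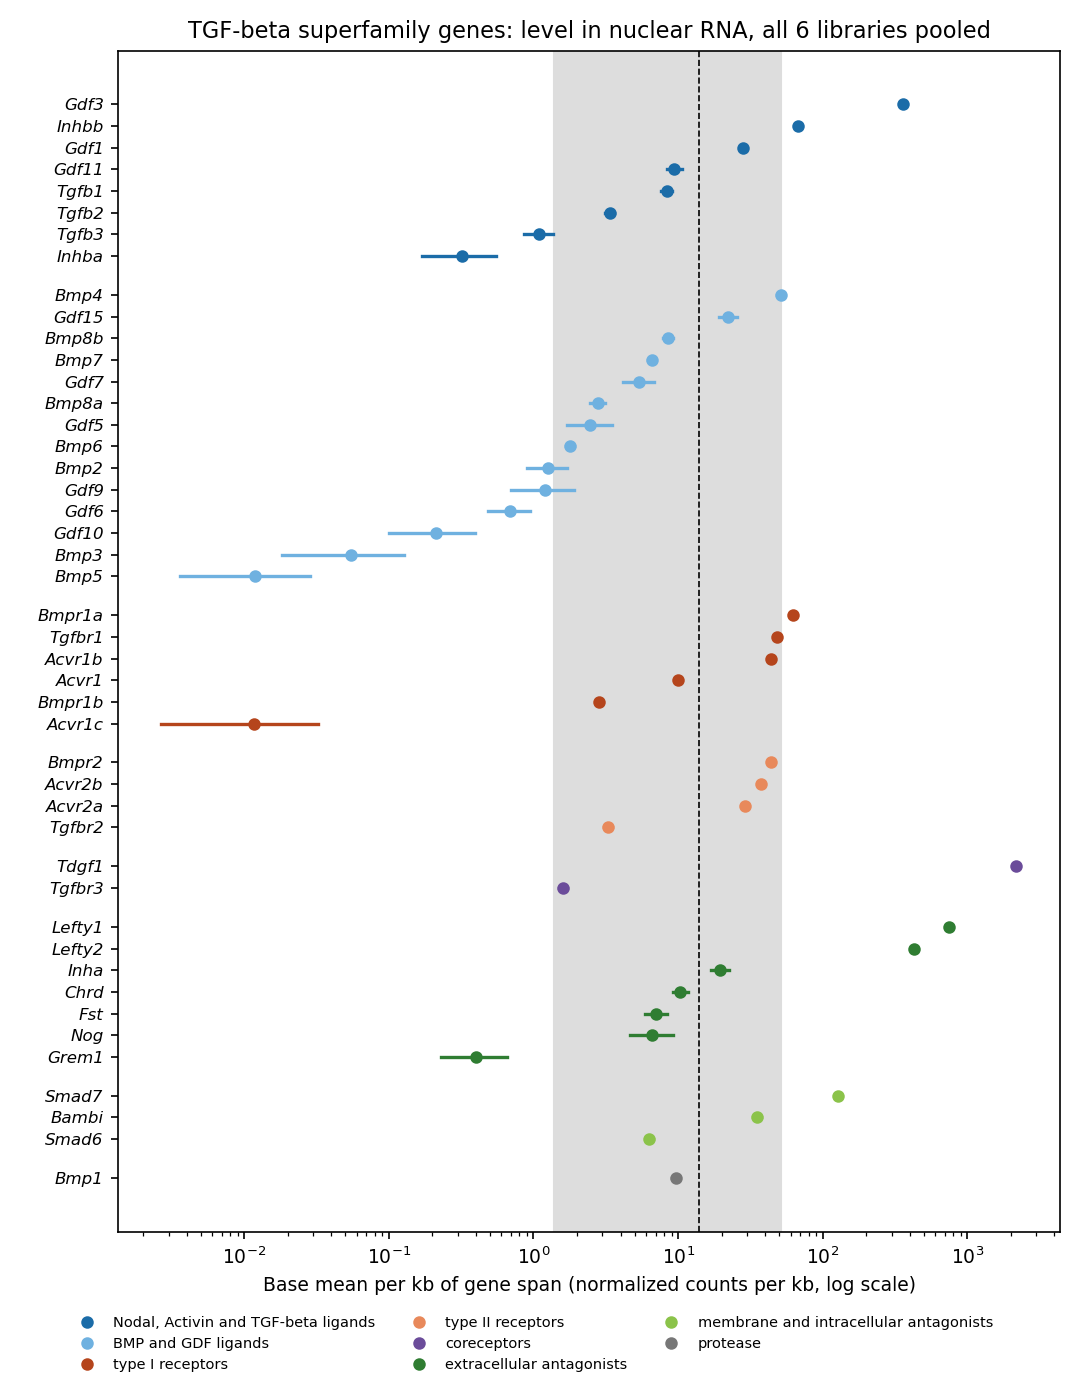
Level of each of the 45 genes in nuclear RNA, as base mean per kb of gene span on a log axis, grouped by role. Horizontal lines are 95% counting intervals, the dashed line is the median of all entries above 0 (14.0) and the grey band spans their quartiles (1.38 to 51.6). Tdgf1, Lefty1, Lefty2, Gdf3 and Smad7 lie far to the right of the band, and Acvr1c, Bmp5 and Bmp3 far to its left.

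The libraries were deep. Base means of entries with a single read recurred at 6 values, from which 6 relative size factors of 0.664 to 1.48 were recovered. The summed base means times these factors gave an approximate total of 146.3 M reads (M, mega) on all entries. The same product gave about 15.5 to 34.6 M reads per library, with the normalised total taken as equal in all libraries. Reads in overlapping entries may be counted more than once in these numbers. The libraries were not linked to UNT or OHT here. Counts above 0 were even in 73.2% of the cases examined, so read pairs were mostly counted as 2 reads. The number of read pairs behind a level was approximated from the base mean and the size factors, with every pair taken as 2 reads. The 95% intervals given with levels are Poisson intervals on this approximate number and cover counting error only. They are not replicate error, and intervals that do not overlap say only that counting noise is smaller than the gap.

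The ES cell identity of the samples was examined with markers. All 7 ES cell markers with an entry lay above the median, at percentiles of 80.1 to 99.7 per kb of span. Pou5f1, a core pluripotency factor, had a base mean of 3039, and Nanog had 2930. None of the 5 primitive endoderm markers, the 4 mesoderm markers or the 4 trophoblast markers exceeded the median. Of the 3 neural markers, Neurod1 did so, at a percentile of 59.6, as did Col1a1 (57.4) and Thy1 (56.9) of the 5 fibroblast markers. Per kb of exons Neurod1, Col1a1 and Thy1 were at percentiles 35.8, 41.1 and 41.4, so their place above the median depended on the length used. Gata6, a primitive endoderm factor, had a base mean of 132.7, and T, a mesoderm factor, had 22.5. Whether rare differentiated cells contributed to the levels of the ligands and antagonists was not tested.

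Among the Nodal, Activin and TGF-beta ligands, Gdf3 stood highest. Gdf3, a Nodal-related ligand made by pluripotent cells, spans chr6:122605403-122610087 and had a base mean of 1688, or 360.3 per kb (95% counting interval 351 to 370), at the 97.5th percentile. Per kb of span it was followed by Inhbb, which encodes the activin beta-B subunit, at 67.3 per kb (63.8 to 70.8), and by Gdf1, a partner of Nodal in heterodimers, at 28.1 per kb (26.7 to 29.6). Gdf3 exceeded Inhbb 5.36-fold per kb of span and 7.41-fold per kb of exons. Inhbb was at the 80.4th percentile per kb of span but at the 48.4th per kb of exons, so its place above the median depended on the length used. Per kb of exons Gdf1 had 163.1 and Inhbb 107.2, the opposite order.

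The value for Gdf1 cannot be given to Gdf1 alone. The entry used, with a base mean of 444.8, spans 15818 bp at chr8:70315775-70331592 and lies wholly within the annotated Cers1 gene on the same strand. Cers1, a ceramide synthase gene, shares its transcript with Gdf1. A shorter entry that covers the Gdf1 end of this transcript over 1771 bp had a base mean of 117.6, or 66.4 per kb of span and 87.2 per kb of exons, the latter below the median of 118.8 over all entries above 0.

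The activin beta-A gene Inhba was near the bottom of the scale. Its base mean was 4.06 (2.14 to 6.99), and Inhbb exceeded it 211.0-fold per kb of span and 40.4-fold per kb of exons. On the opposite strand, an annotated pseudogene covers 70.3% of the Inhba span, and whether counting used strand is not stated in the sources used here. The 3 TGF-beta genes followed the order Tgfb1, Tgfb2 and Tgfb3, with 8.33 (7.60 to 9.12), 3.36 (3.14 to 3.59) and 1.09 (0.859 to 1.36) normalised counts per kb, and their counting intervals did not overlap. All 3 were below the median of all entries. Tgfb3 shares 23.1% of its span with Ttll5 on the opposite strand, and Ttll5 had a base mean of 4049. Gdf11, a relative of myostatin that patterns the body axis, had 9.40 per kb (8.33 to 10.6), which overlapped the interval of Tgfb1.

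The BMP and GDF ligands were lower as a group. Only Bmp4 and Gdf15 of these 14 genes exceeded the median per kb of span, and the median percentile of the 14 was 28.5. Bmp4, which directs mesoderm and germ cell formation in the embryo, spans chr14:46383520-46390669 and had 51.1 normalised counts per kb (48.2 to 54.1), at the 74.8th percentile. Antisense transcript Gm15222 covers 24.7% of this span. Gdf15, a stress-induced cytokine, had 22.3 per kb (19.2 to 25.7), but its percentile fell from 57.6 per kb of span to 36.1 per kb of exons.

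The remaining BMP genes were spread over a wide range. Bmp7, a ligand required in kidney and eye, had a base mean of 475.0, above the 365.3 of Bmp4, but it is spread over 72310 bp and came to 6.57 per kb (6.24 to 6.91). Bmp4 thus exceeded Bmp7 7.78-fold per kb of span and only 1.37-fold per kb of exons. Bmp6, which acts in iron homeostasis, had 1.79 per kb (1.68 to 1.92), and Bmp2, which is needed for heart development, had 1.26 (0.907 to 1.70). The intervals of Bmp2 and Bmp6 overlapped per kb of span. Their base means were 13.5 and 278.2, and per kb of exons Bmp2 had 3.79 and Bmp6 had 77.4, so their closeness depended on the length used. Bmp8b and Bmp8a, neighbouring paralogs with roles in the germ line, had 8.53 (7.84 to 9.27) and 2.78 (2.45 to 3.13) per kb. Both contain a gene of the Oxct2 pair on the same strand, covering 8.29% of Bmp8b and 5.75% of Bmp8a. On the opposite strand, Gm17244 covers 16.3% of the Bmp8b span. The transcripts of Bmp8b and Bmp8a also share 240 stretches of 40 bases, the read length. This is 8.35% of those in Bmp8b and 10.1% of those in Bmp8a, so some reads could not be told apart.

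Weakly represented ligands made up the rest. Gdf7 and Gdf5, which act in neural and joint development, had 5.38 (4.17 to 6.82) and 2.48 (1.71 to 3.47) per kb, and Gdf6, another gene of the same subgroup, had 0.685 (0.486 to 0.939). Gdf5 is overlapped on the opposite strand over 39.8% of its span. Gdf9, an oocyte factor, had 1.20 (0.703 to 1.92), and its interval overlapped those of Bmp2 and Gdf6. The base means of Gdf10, Bmp3 and Bmp5 were 3.06 (1.44 to 5.70), 1.64 (0.545 to 3.80) and 1.47 (0.450 to 3.55). Bmp5, spread over 124947 bp, was at percentile 1.0 per kb of span. The intervals of these 3 base means overlapped. Per kb of span, those of Gdf10, at 0.212 (0.0997 to 0.396), and Bmp5, at 0.0118 (0.0036 to 0.0284), did not. Per kb of exons Gdf10 had 0.586, Bmp5 0.385 and Bmp3 0.251, so the gap between Gdf10 and Bmp5 depended on the length used. A single library carried much of the value for Gdf10 and Bmp3, whose base means were 1.503 and 1.03 without the library that moved each most.

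**Figure D2:**
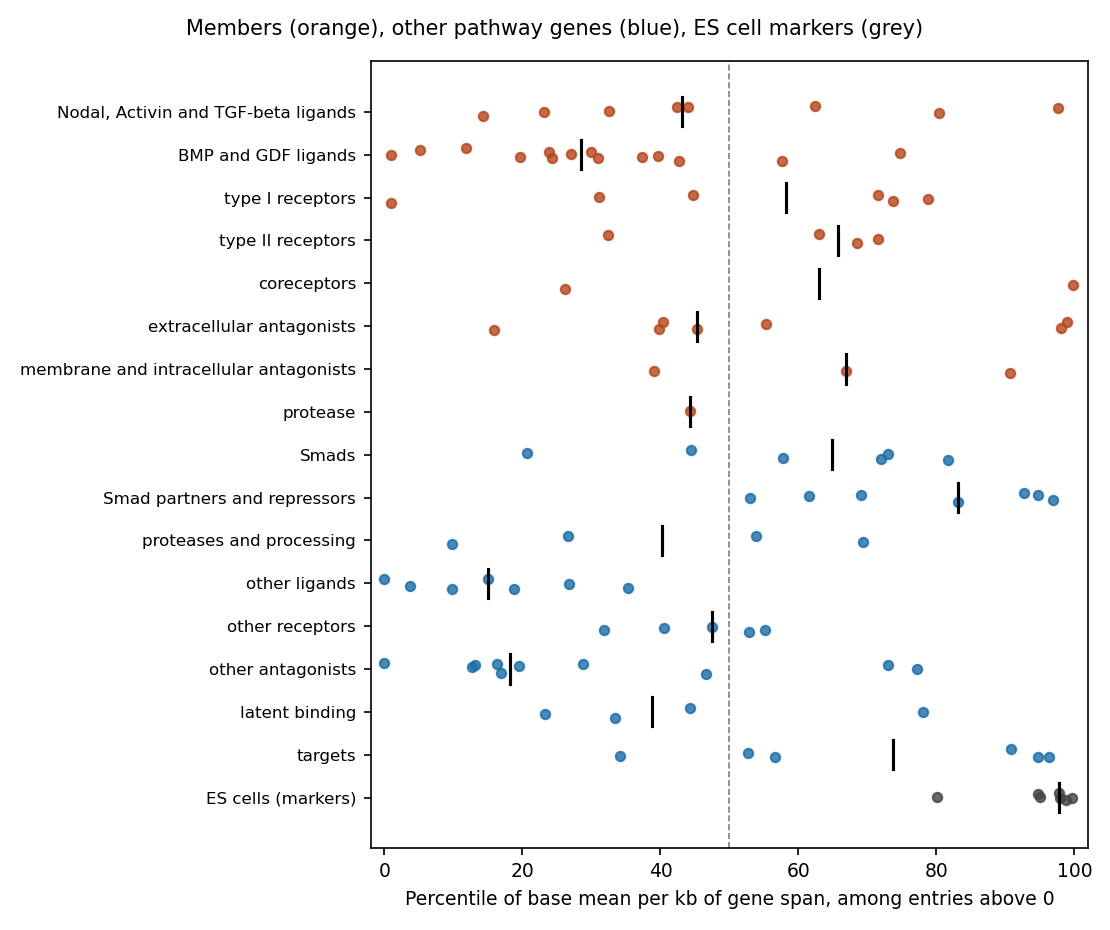
Percentile of base mean per kb of gene span among entries above 0, with 1 point per gene and the median of each role as a black bar; orange points are the TGF-beta superfamily genes described, blue points are other pathway genes and grey points are ES cell markers. The dashed line marks percentile 50; the BMP and GDF ligands have a median of 28.5, the type II receptors 65.8 and the ES cell markers 97.8.

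Receptors made up 6 of the 13 genes that exceeded the median on both length scales. Bmpr1a, the main type I receptor for BMP ligands in the early embryo, spans chr14:34410734-34502687 and had a base mean of 5693, or 61.9 per kb (61.0 to 62.8). Tgfbr1, the type I receptor for TGF-beta, had 48.3 per kb (47.3 to 49.3), and Acvr1b, the type I receptor for Activin and Nodal, had 43.7 (42.6 to 44.9). These 3 were above the median on both length scales. Acvr1, which serves BMP ligands, had 9.92 per kb (9.61 to 10.2) and was at the 44.8th percentile per kb of span but the 71.1st per kb of exons.

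The other type I receptors were lower. Acvr1c, an alternative receptor for Nodal and Activin B, had the lowest level of all 45 genes, with a base mean of 1.06 (0.241 to 2.95). Per kb of span its interval overlapped that of Bmp5. Acvr1b exceeded it 3745-fold per kb of span and 3402-fold per kb of exons. Bmpr1b, a BMP receptor known from limb cartilage and ovary, showed the greatest dependence on length. It had a base mean of 932.7 over 328847 bp, which came to 2.84 per kb of span and 488.3 per kb of exons, at percentiles 31.1 and 77.3. Its 3 entries had 2.84, 2.35 and 2.38 normalised counts per kb of span, a far closer match than the 488.3, 63.7 and 53.5 per kb of exons. Bmpr1a exceeded Bmpr1b 21.8-fold on the first scale and 1.96-fold on the second. Over 256 genes with several entries whose spans differed by 2 times or more, the median gap between entries was 0.75 on the log2 scale per kb of span and 0.77 per kb of exons, so neither scale was closer in general.

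Of the type II receptors, 3 lay above the median on both scales. Bmpr2, the type II receptor dedicated to BMP ligands, had a base mean of 5054 and 43.7 per kb (43.0 to 44.4), within the counting interval of Acvr1b. Acvr2b and Acvr2a, which serve Activin, Nodal and BMP ligands, had 37.6 (36.4 to 38.8) and 29.0 (28.3 to 29.6) per kb. Antisense transcript Gm47320 covers 12.4% of the Acvr2b span. Tgfbr2, the type II receptor for TGF-beta, was lower at 3.27 per kb (3.06 to 3.49). Bmpr2 exceeded it 13.4-fold per kb of span and 10.7-fold per kb of exons, and its type I partner Tgfbr1 exceeded it 14.8-fold and 14.1-fold. The TGF-beta receptor pair thus differed widely in level, whereas Acvr1b, Acvr2a and Acvr2b, which act together, lay between 29.0 and 43.7 per kb.

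The coreceptor Tdgf1 had the highest level of the family. Tdgf1 encodes Cripto, a membrane-anchored protein that Nodal and Gdf3 need in order to signal, and it is a marker of pluripotent cells. It spans chr9:110939603-110946158 and had a base mean of 14299.9 (14168 to 14433), or 2181 normalised counts per kb, at the 99.7th percentile. Tgfbr3, which encodes betaglycan and presents TGF-beta and inhibin to their receptors, had 1.61 per kb (1.51 to 1.72), at the 26.2nd percentile. Tdgf1 exceeded Lefty1, the next gene of the family, 2.92-fold per kb of span.

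Antagonists of Nodal led the inhibitors. Lefty1 and Lefty2, secreted ligand-like proteins that block Nodal and its coreceptor, lie in tandem on chromosome 1 at chr1:180935022-180938400 and chr1:180893108-180899103. Their base means were 2522 (2466 to 2578) and 2557 (2501 to 2614), which overlapped, and they reached the 99.0th and 98.0th percentiles per kb of span. Lefty1 had 746.3 per kb and Lefty2 had 426.4, a 1.75-fold gap that came from the longer span of Lefty2. The transcripts share 341 stretches of 40 bases, 21.6% of those in Lefty1 and 14.0% of those in Lefty2, so part of the reads could belong to either gene.

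Antagonists of BMP and Activin were lower. Chrd (Chordin) had 10.4 per kb (9.20 to 11.6), Fst (Follistatin, which binds Activin) had 7.04 (5.89 to 8.35) and Nog (Noggin) had 6.64 (4.63 to 9.23). Per kb of span the intervals of Chrd and Nog met, as did those of Fst and Nog. Per kb of exons Chrd had 30.3, Fst 22.8 and Nog, whose span is a single exon, 6.64. Chrd exceeded Nog 1.56-fold per kb of span and 4.56-fold per kb of exons. Lefty1 exceeded Chrd 72.1-fold per kb of span. On the opposite strand, Thpo covers 15.4% of the Chrd span and had a base mean of 72.2, against 93.1 for Chrd. Inha, whose inhibin alpha subunit competes with Activin, had 19.5 per kb (16.9 to 22.4), above the median per kb of span but at the 37.2nd percentile per kb of exons. Grem1 (Gremlin), a BMP antagonist of limb and gut, had a base mean of 5.01 (2.84 to 8.17), which was 2.39 without the library that held most of its reads.

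Among the inhibitors in the cell and its membrane, Smad7 was highest. Smad7, the inhibitory Smad that acts on all type I receptors, had a base mean of 3627 and 127.7 per kb (125 to 130), at the 90.6th percentile. Smad6, the inhibitory Smad with a preference for BMP receptors, had 6.33 (5.997 to 6.673), and Bambi, a decoy receptor without a kinase domain, had 34.97 (32.8 to 37.3). Smad7 exceeded Smad6 20.2-fold per kb of span and 5.77-fold per kb of exons. The order of Smad6 and Bambi changed with the scale, since Smad6 was at the 39.1st percentile per kb of span and the 53.6th per kb of exons, and Bambi at the 66.9th and the 40.4th. Bmp1, a protease that cleaves procollagen and Chordin rather than a ligand, had 9.61 per kb (9.11 to 10.1).

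**Figure D3:**
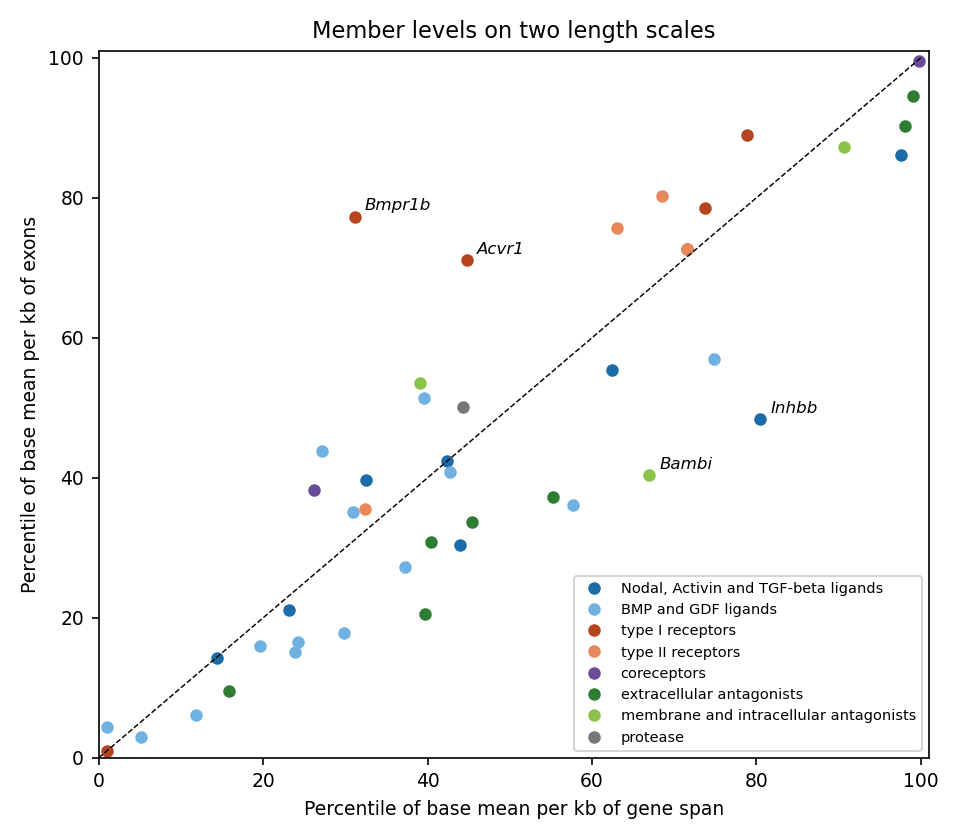
Percentile of each of the 45 genes per kb of gene span (horizontal) and per kb of exons (vertical), coloured by role; the dashed line marks equal percentiles. Of these genes, 36 were on the same side of percentile 50 on both scales, and the 4 named genes (Bmpr1b, Acvr1, Inhbb and Bambi) moved by more than 25 percentiles.

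The 2 length scales placed 36 of the 45 genes on the same side of the median, and 13 were above it on both. These 13 were Tdgf1, Lefty1, Lefty2, Gdf3, Gdf1, Bmp4, Smad7, Bmpr1a, Tgfbr1, Acvr1b, Bmpr2, Acvr2a and Acvr2b. They thus held the Nodal coreceptor, 2 Nodal antagonists, 3 ligands, 6 receptors and 1 inhibitory Smad. The place of Gdf1 rests on the entry shared with Cers1, and its shorter entry was below the median per kb of exons.

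Other genes of the pathway were examined from a list of 52, of which 50 had an entry, 49 had a length and 23 exceeded the median per kb of span. All 7 Smad partners and repressors did so, with a median percentile of 83.1. Tgif1, a repressor bound to Smad complexes, had 297.1 per kb, and Foxh1, the DNA-binding partner of Smad2 in Nodal signalling, had 154.7. Of the receptor Smads and Smad4, 4 of 6 exceeded the median, led by Smad2 with 71.5 per kb and Smad4 with 46.7, whereas Smad9 was lowest at 0.786. The targets of the pathway included 5 of 6 above the median, and Id1, Id3 and Id2, which are induced by BMP, had 256.6, 200.8 and 130.0 per kb.

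None of the 7 other ligands exceeded the median, and Mstn (myostatin) was listed at 0. Their highest level was 4.40 per kb for Amh, the anti-Müllerian hormone. Of the 10 other antagonists with a length (Dand5 had none), 2 exceeded the median, namely Twsg1 (57.1 per kb), a BMP-binding protein, and Fstl1 (46.5 per kb). Cer1, which encodes Cerberus, was listed at 0. The convertases that cleave ligand precursors, Furin and Pcsk6, had 39.2 and 18.0 per kb of span. Per kb of exons they had 152.8 and 806.0, the opposite order. Among the latent TGF-beta binding proteins Ltbp4 stood out with 59.8 per kb of span. The other receptors ranged from 3.06 per kb for Rgma to 19.3 for Rgmb, both of which encode BMP coreceptors.

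The promoter windows of the family were compared with others for CpG content, as a description with no test. A window was taken as CpG-rich where the observed over expected CpG ratio was at least 0.6 and GC content at least 50%. By this measure 20 of 30 genes of the family (66.7%) had a CpG-rich window, against 33.5% of all 32851 windows and 50.7% of the windows of genes in the table. Each family gene was given a single window, the nearest to the start of its entry where it had one. The comparison shares count every window, alternative starts included, so the units differ. The median window held 24.5 CpGs in the family, 16 over genes in the table and 7 over all windows. Of the 12 family genes with a window and a level above the median, 8 were CpG-rich, and Bmp4, Gdf15, Tdgf1 and Inha were not. Of the 5 below percentile 25, Gdf10, Acvr1c and Grem1 were CpG-rich, whereas Inhba and Bmp5 were not. Over genes in the table, 73.2% of the windows above the median were CpG-rich and 14.3% of those below percentile 25. With 12 and 5 genes, no difference from these shares was tested. The start site of the window lay within 100 bp of the start of the entry for 22 of the genes, and that of Bmpr1b lay 186949 bp from it.

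**Figure D4:**
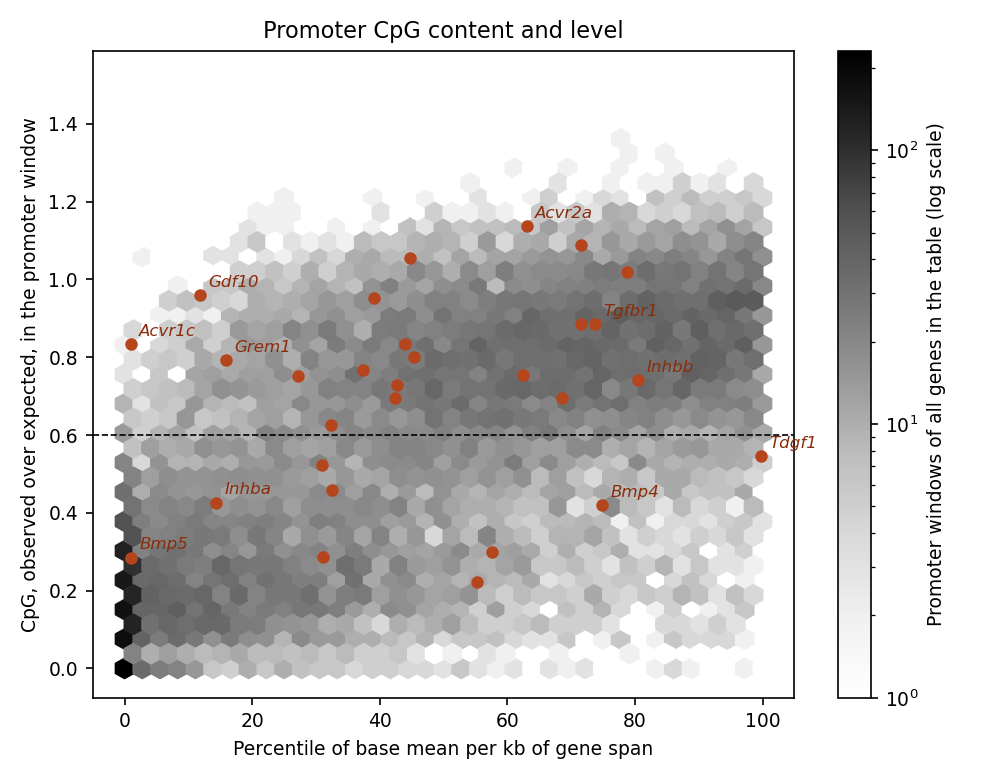
Observed over expected CpG ratio of the promoter window against the percentile of base mean per kb of gene span, for the family genes with both values (orange points) over the windows of all genes in the table (grey hexagons, log scale of counts). The dashed line marks a ratio of 0.6; Gdf10, Acvr1c and Grem1 lie above it at low levels, and Tdgf1 and Bmp4 below it at high levels.

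Short motifs were searched on both strands of the same windows. The palindromic Smad box GTCTAGAC was found in the window of Smad6 alone (1 of 30, 3.33%, against 0.213% of all windows). The GC-rich motif GGCGCC, which receptor Smads of the BMP branch can bind, was found in 8 windows (26.7%, against 11.9% of all windows), including those of Bmpr1a, Tgfbr1 and Gdf10. The Foxh1 motif AATCCACA was found in 0 windows, against 0.855% of all windows. TATAAA was found in 4 windows (13.3%, against 13.6%), those of Inhba, Tgfb2, Gdf11 and Bmpr1b, and CCAAT in 12 (40.0%, against 37.4%). GGCGCC holds a CpG, and the family windows held more CpGs at the median, so these shares are not independent of each other. A match is a run of letters and no evidence of binding.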

How the data were processed

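RNA was taken from nuclei of Rybp fl/fl;Yaf2-/- ES cells and depleted of rRNA. Strand-specific libraries (3 UNT, 3 OHT) were read from both ends over 40 bp. Per the study's methods and processing notes, the authors removed rRNA reads with Bowtie2, aligned to mm10 with STAR and then Bowtie2, and counted reads over RefSeq genes kept for size, mappability and distinct ends. Whether counting used strand, exons or whole genes is not given in the sources used here. The authors deposited 1 signal per transcript, the base mean of DESeq2-normalised counts over all libraries. Its 6 other columns hold the authors' comparison of OHT with UNT (fold change, its error, test statistic, p-value, adjusted p-value and a threshold flag) and were not used, so no test was made.

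Symbols came from RefSeq, and spans, exons and overlaps from GENCODE on GRCm38, which gave a length to 98.2% of entries. Relative size factors were solved from the base means of entries with few reads (tested on simulated data), and all 1531 entries with a base mean above 0 and under 1.5 resolved to whole reads in a single way. Python 3.11.15, numpy 2.4.6, pandas 2.3.3, scipy 1.17.1 and matplotlib 3.10.9 were used. All 46 genes were to be named, and other pathway genes and markers came from written lists. The genes and lists were chosen with earlier results of these data known.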

Additional observations from a re-analysis of the deposited data

How the results depend on the processing

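Of the 45 genes, 17 exceeded the median per kb of span. The count was 18 per kb of exons, 19 with no division by length and 17 with zeros included. It was 15 against entries that reached a base mean of 10, and 10 of 25 without genes that overlap another gene. With all entries of a gene summed it was 17, but this touched only 3 genes and could take none of them across the median, so the count was bound to stay. With 2 alternatives chosen after seeing the data the count was 17 (the shorter Gdf1 entry) and 14 of 35 (without genes overlapped over at least 5% of their span). The latter gave median percentiles of 32.6 for ligands, 67.3 for receptors and 55.3 for antagonists. The median percentile of the 22 ligands (31.8) was 32.8 per kb of exons, 33.3 with no division by length, 36.4 with zeros included and 38.4 over the 12 without overlaps. That of the 10 receptors (65.8) was 74.2, 77.4, 68.1 and, over 3 genes, 32.4 under the same settings. That of the 10 antagonists (50.3) was 38.8, 42.5, 53.7 and, over 8 genes, 61.1. Base means of at least 5 and 20 were reached by 40 and 34 genes. A stricter CpG ratio of 0.75 left 15 of 30 promoters CpG-rich, against 36.4% of the windows of genes in the table. The 2.23-fold range of the size factors did not move with the tolerance. No paired analysis was possible because UNT and OHT were pooled into 1 value per gene, and for most genes no library could be left out for the same reason. For the 7 genes under 10 and Yaf2, whose reads per library were solved, leaving out each library in turn (added after seeing the data) moved the base mean by over 1.5 times for Gdf10 without library F (3.06 to 1.503), Grem1 without A (5.01 to 2.39) and Bmp3 without B (1.64 to 1.03). The cause of the shifts with length was not tested.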

Other observations

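For 7 of the genes with base means under 10, and for Yaf2, the base mean resolved to whole reads in each of the 6 libraries. The libraries are called A to F in order of rising size factor (0.664, 0.850, 0.931, 0.984, 1.35 and 1.48). They were not linked to UNT or OHT, because the columns of the authors' comparison were not used, so they are not taken as replicates of a group and nothing was compared. Most pairs count as 2 reads.

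Gdf10, a BMP3-related ligand, had 22 reads, of which 16 (72.7%) were in library F, with 4 in A, 2 in E and 0 in B, C and D. Grem1 had 27 reads, with 12 (44.4%) in library A, the shallowest, 2 in B, 0 in C, 2 in D, 2 in E and 9 in F. The reads of both genes were thus concentrated in libraries at the ends of the depth range. Inhba had reads in all 6 libraries, 2, 5, 3, 6, 1 and 8 from A to F. Gdf9 had 36 reads, with 0, 4, 8, 10, 4 and 10. Both were thus spread across libraries, which the pooled level alone does not show.

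The lowest genes rested on very few reads. Acvr1c had 8 reads, 2 in C, 2 in E and 4 in F, and Bmp3 had 8 reads, 2 in A, 4 in B and 2 in C, so no library held reads of both except C. Bmp5 had 11 reads, 2 in C, 1 in D, 4 in E and 4 in F. The Yaf2 deletion carried by all cells removed exons 1 and 2, whereas the Yaf2 entry spans 52531 bp and 4 exons. Yaf2 had 20 reads, 3, 1, 6, 0, 8 and 2 from A to F, and where in the entry they lay is not known.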
